A study of Mus musculus with 16 samples.

Results

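The genes described here are 35 interferon-stimulated genes and guanylate-binding proteins of mouse muscle, picked by their symbols from a deposited expression table of 47643 genes. Of these symbols, 34 were found as written. Gbp6 stands in the table as 2 rows, Gbp6_1 and Gbp6_2, and the table does not say which annotated gene each is. In all, 36 rows were followed. The genes were split by name into interferon gamma targets and type I interferon targets. The interferon gamma targets were 8 guanylate-binding protein genes (Gbp2, Gbp2b, Gbp3, Gbp4, Gbp5, Gbp6, Gbp7 and Gbp9) and the immunity-related GTPases Igtp, Irgm1 and Irgm2, which makes 11 genes and 12 rows. The type I interferon targets were 21 genes: Ifit1, Ifit2, Ifit3, Isg15, Irf7, Irf9, Stat2, Oasl2, Oas1a, Ifi27, Ifi35, Ifi44, Ifih1, Ddx58, Rsad2, Bst2, Usp18, Rtp4, Xaf1, Parp14 and Ifitm3. Iigp1, Irf1 and Irf8 were put in neither class. Of the 36 rows, 33 reached a mean of 1 TPM over the 16 samples and were tested. Oas1a, Ifi44 and Usp18 did not.

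RNA was sequenced from the tibialis anterior, a shin muscle, of 16 male C57BL6/J mice in 4 groups of 4: 6M WT and 6M UBR4 mKO at 6 months of age, and 24M WT and 24M UBR4 mKO at 24 months. UBR4 is a ubiquitin ligase. Every mouse, the WT mice included, was UBR4 fl/fl, with both Ubr4 alleles floxed, and was given tamoxifen. The UBR4 mKO mice also carried ACTA1-Cre, a tamoxifen-dependent recombinase driven by a skeletal muscle promoter. The vessels, connective tissue and leukocytes of the muscle are not its target. The WT mice were siblings without Cre. The comparisons ask what loss of UBR4 does at each age, what age does in each genotype, and whether one depends on the other.

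Values are TPM, reads per transcript length scaled to the same total, 1000000, in every sample. The number of reads per sample is therefore unknown, and so is the precision that depth gives to genes of a few TPM, as most of these were. Differences between groups are log2 fold changes ± SE, computed after adding 0.1 to each TPM, so that changes of genes at low TPM are understated. "Called" means an adjusted p under 0.05 with limma over 10628 genes. Ubr4 itself was at 11.1, 15.7, 13.2 and 9.09 TPM in 6M WT, 4.98, 4.91, 5.51 and 6.54 TPM in 6M UBR4 mKO, 17.2, 17, 17.8 and 21.1 TPM in 24M WT and 10.1, 14.6, 4.28 and 7.63 TPM in 24M UBR4 mKO muscles. The log2 fold change for UBR4 mKO against WT was -1.12 ± 0.26 (limma adjusted p = 0.00365) at 6 months and -1.12 ± 0.26 (limma adjusted p = 0.0598) at 24 months. Replicate 2 of the 24M UBR4 mKO muscles, at 14.6 TPM, was below each 24M WT muscle but within the range of the 6M WT muscles. Across all genes tested the median log2 fold change was 0.33 for UBR4 mKO against WT at 6 months and 0.26 for age in WT. Transcripts of the mitochondrial genome took up 52.6 to 59.7% of TPM in 6M WT and 46.1 to 51.7% in the other 12 samples. A second scaling, by each sample's median ratio to the other samples, moved these medians to -0.02 and 0.00 and is given beside the main counts. Markers of myofibers summed to 83434 to 92797 TPM in 6M WT and 101052 to 116386 TPM in the other 12 samples. Of these markers 5 of 9 were called higher in 6M UBR4 mKO, against 43.7% of all genes. With age in WT 8 of 9 were called higher, against 24.0% of all genes, and 1, Myh1, lower, against 1.07%. With the second scaling 1 of 9 was called higher in each, against 6.66% and 4.44% of all genes. With it 2 and 1 were called lower, against 10.2% and 5.33%. The part of this difference in the results was not tested.

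Interferons are secreted antiviral cytokines. Type I interferons (interferon alpha and beta) act through a complex with STAT2 and IRF9 that binds interferon-stimulated response elements, whereas interferon gamma, made mainly by T and NK cells, acts through gamma-activated sites. The induced proteins block viral RNA and translation (the IFIT and OAS families), sense viral RNA (IFIH1 and RIG-I, the product of Ddx58), amplify the response (IRF7) or, as the guanylate-binding proteins and immunity-related GTPases do, coat the membranes around intracellular pathogens. In skeletal muscle, type I interferon target genes are known for their induction in the inflammatory muscle disease dermatomyositis.

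The promoters of members on which the results turn are shown so that the elements can be seen in place. The sequences are RefSeq GRCm38.p6, 5′ to 3′ along the gene's strand, and are the 250 bases before the transcription start, in which capitals mark a core of the interferon-stimulated response element (GAAANNGAAA, or its reverse complement) or a gamma-activated site (TTCNNNGAA). Igtp, at chr11:58199306-58199555 (+ strand), and Irgm2, at chr11:58214727-58214976 (+ strand), are immunity-related GTPases that moved in several comparisons. Gbp2, at chr3:142620413-142620662 (+ strand), and Gbp2b, at chr3:142594597-142594846 (+ strand), are neighbours that moved in opposite directions with age in WT. Isg15, at chr4:156200819-156201068 (- strand), stands for the type I targets, and Irf1, at chr11:53769764-53770013 (+ strand), for the genes of neither class.
Igtp: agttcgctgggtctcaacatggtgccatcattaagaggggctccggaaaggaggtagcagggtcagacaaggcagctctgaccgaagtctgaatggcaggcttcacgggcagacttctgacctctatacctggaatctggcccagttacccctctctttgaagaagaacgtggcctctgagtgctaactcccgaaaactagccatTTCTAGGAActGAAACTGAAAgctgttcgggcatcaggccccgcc
Irgm2: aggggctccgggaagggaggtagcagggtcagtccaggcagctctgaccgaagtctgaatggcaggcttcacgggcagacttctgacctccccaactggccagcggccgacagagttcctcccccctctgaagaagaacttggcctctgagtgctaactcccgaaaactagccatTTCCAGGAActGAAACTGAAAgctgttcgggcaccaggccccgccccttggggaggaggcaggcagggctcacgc
Gbp2: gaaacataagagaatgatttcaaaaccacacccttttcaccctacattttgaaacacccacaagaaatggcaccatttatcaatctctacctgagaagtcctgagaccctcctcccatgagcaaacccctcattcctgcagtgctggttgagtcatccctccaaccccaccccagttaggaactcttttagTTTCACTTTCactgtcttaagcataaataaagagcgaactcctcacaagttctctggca
Gbp2b: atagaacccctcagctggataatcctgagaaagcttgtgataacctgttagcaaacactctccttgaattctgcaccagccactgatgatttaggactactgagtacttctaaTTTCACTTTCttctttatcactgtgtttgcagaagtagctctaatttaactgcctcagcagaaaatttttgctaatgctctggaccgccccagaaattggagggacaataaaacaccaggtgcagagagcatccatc
Isg15: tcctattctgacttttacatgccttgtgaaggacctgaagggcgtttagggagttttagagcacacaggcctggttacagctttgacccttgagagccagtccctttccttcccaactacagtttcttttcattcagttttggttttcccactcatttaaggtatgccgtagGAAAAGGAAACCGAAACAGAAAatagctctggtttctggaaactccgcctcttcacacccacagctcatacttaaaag
Irf1: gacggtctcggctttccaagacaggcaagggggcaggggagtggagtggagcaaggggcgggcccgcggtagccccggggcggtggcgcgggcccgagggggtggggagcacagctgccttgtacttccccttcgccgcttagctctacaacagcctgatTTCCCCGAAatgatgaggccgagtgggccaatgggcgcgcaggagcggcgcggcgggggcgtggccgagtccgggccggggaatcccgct
In Igtp and Irgm2 the gamma-activated site began 11 bases before the response element core, and both promoters shared an identical run of 55 bases. Isg15 held 3 overlapping cores, Gbp2 and Gbp2b 1 core each on the other strand, and Irf1 a gamma-activated site alone. A promoter was found for 27 of the 35 genes (none was found for Gbp4, Gbp6, Gbp9, Iigp1, Ifi27, Parp14, Rtp4 and Usp18). On either strand of the 300 bases from 250 before to 50 after the start, 18 of 27 held the response element core (66.7%), against 3.99% of 27025 genes with a promoter, and 11 held the gamma-activated site (40.7%), against 9.55%. By class, the core was in 8 of 8 interferon gamma targets, in 10 of 17 type I targets and in 0 of 2 genes of neither class. The gamma-activated site was in 4, 5 and 2 of them. The motifs overlapped each other in Bst2 and Ifitm3. A match describes the letters and is not a measurement of binding.

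**Figure D1:**
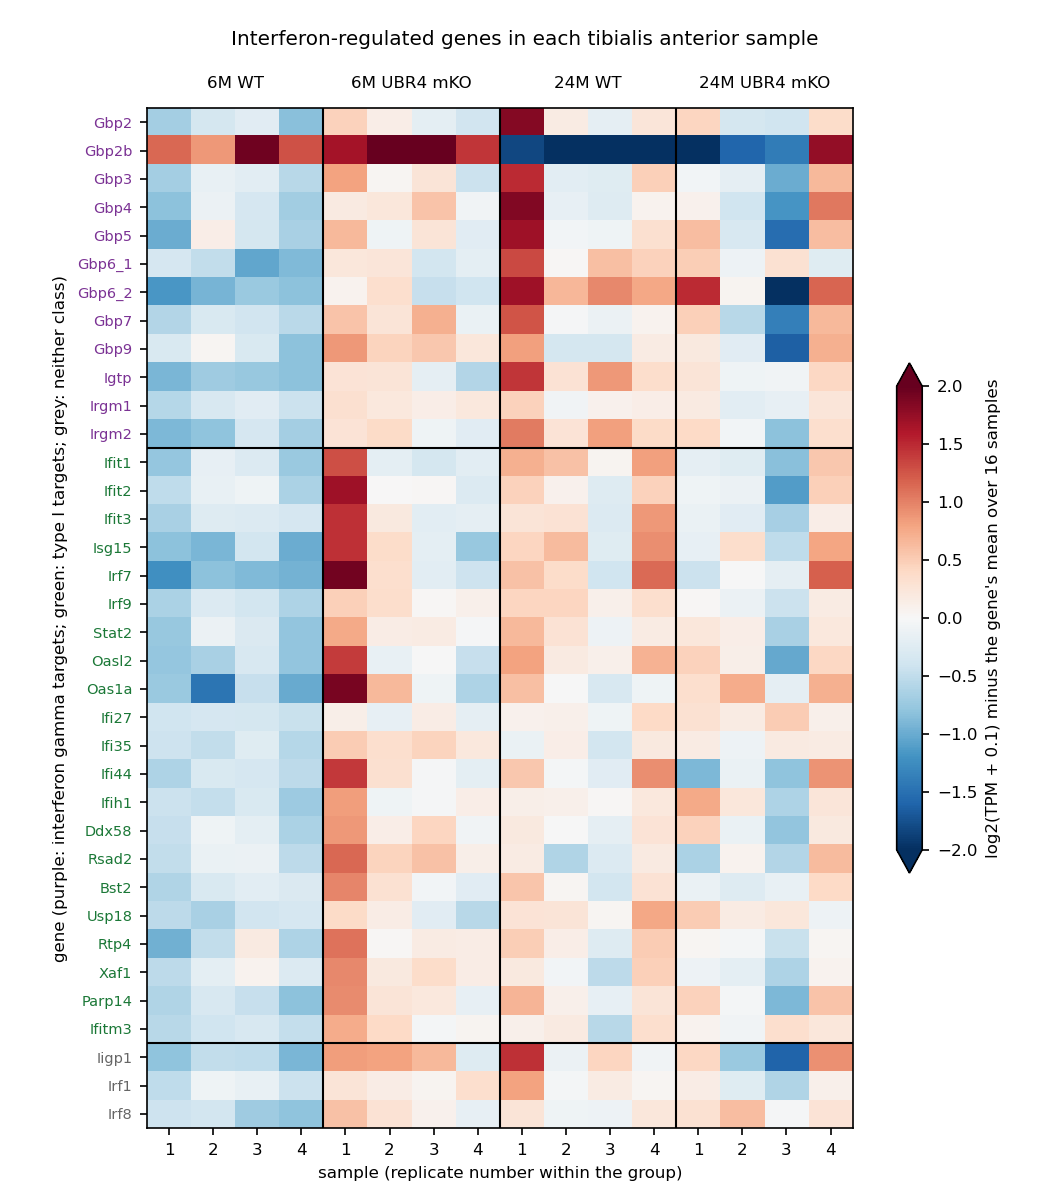
Level of each of the 36 rows (vertical axis, by class) in each of the 16 samples (horizontal axis, by group), as log2(TPM + 0.1) minus the mean of that row; colours saturate at 2 on either side. The 6M WT samples are below the row mean in most rows, and replicate 1 of 6M UBR4 mKO stands out in the type I targets and replicate 1 of 24M WT in the guanylate-binding proteins.

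At 6 months, interferon targets of both classes had positive log2 fold changes in UBR4 mKO, and the share called exceeded that of all genes for the type I targets but not for the interferon gamma targets. Without replicate 1 of 6M UBR4 mKO the share called was below that of all genes for both the type I and the interferon gamma targets. All 33 tested rows had a positive log2 fold change, with a median of 0.72 against 0.33 for all genes. Of these rows, 21 of 33 (63.6%) were called higher against 43.7% of all genes. None was called lower, against 1.15% of all genes. With the median-ratio scaling, 33 of 33 rows were still above 0, with a median of 0.38 against -0.02 for all genes. With that scaling 2 of 33 (6.06%) were called, Ifi35 and Irf9, against 6.66% of all genes, so that the share called was near the background. The groups did not overlap, with UBR4 mKO higher, for 22 of the 33 rows tested, against 39.0% of all genes.

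Replicate 1 of the 6M UBR4 mKO muscles stood above the others in the type I targets, whose summed level was 300.1 TPM in it and 168.1 to 208 TPM in the other 3. Without it, 7 of 33 rows (21.2%) were called, against 36.6% of all genes, and without replicate 1 or replicate 4 of 6M WT, 12 or 9 rows, against 33.9% or 24.7% of all genes. These 7, Igtp, Irgm1, Irgm2, Irf9, Ifi35, Ifitm3 and Irf8, kept their call in each of the 16 fits that left out 1 sample.

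The inducible transcription factors of the type I response were among the called genes. Irf7, the amplifier of type I interferon production, was at 0.92, 1.26, 1.19 and 1.13 TPM in 6M WT and 8.98, 2.91, 1.97 and 1.68 TPM in 6M UBR4 mKO, with a log2 fold change of 1.38 ± 0.44 (limma adjusted p = 0.0192). The groups did not overlap, and the first UBR4 mKO mouse was far above the other 3. Without it the log2 fold change of Irf7 was 0.87 (limma adjusted p = 0.0605). Irf9, the DNA-binding part of the type I complex, was at 1.23, 1.6, 1.49 and 1.24 TPM in 6M WT and 2.76, 2.51, 2 and 2.11 TPM in 6M UBR4 mKO, a log2 fold change of 0.71 ± 0.15 (limma adjusted p = 0.00262), or 0.38 (limma adjusted p = 0.0498) with the median-ratio scaling. Stat2, its partner, was at 1.5, 2.4, 2.11 and 1.47 TPM and 4.47, 2.92, 2.94 and 2.57 TPM (log2 fold change 0.75 ± 0.23, limma adjusted p = 0.0161). Each of the 3 genes was higher in every UBR4 mKO than in every WT muscle.

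Ifi35, an interferon-induced leucine zipper protein, had the smallest adjusted p of all members at this age. It was at 7.49, 7.12, 8.48 and 6.76 TPM in 6M WT and 14.3, 12.7, 13.7 and 11.7 TPM in 6M UBR4 mKO, with a log2 fold change of 0.80 ± 0.12 (limma adjusted p = 0.00028), or 0.45 (limma adjusted p = 0.0296) with the median-ratio scaling. Ifitm3, which blocks virus entry at endosomes and was the most abundant member, was at 56.4, 63.3, 66.4 and 59.6 TPM and 138.8, 109.5, 81.3 and 86.4 TPM (log2 fold change 0.73 ± 0.18, limma adjusted p = 0.00498). For both genes every UBR4 mKO muscle was above every WT muscle.

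Isg15, a ubiquitin-like modifier, was at 1.87, 1.74, 2.59 and 1.63 TPM in 6M WT and 9.37, 4.37, 2.93 and 1.94 TPM in 6M UBR4 mKO, with overlap of the groups and a log2 fold change of 0.99 ± 0.38 (limma adjusted p = 0.0425). Without the first UBR4 mKO muscle it was 0.58 (limma adjusted p = 0.148). Rsad2, or viperin, an inhibitor of viral RNA synthesis, was at 1.93, 2.52, 2.55 and 1.89 TPM and 6.27, 3.78, 4.22 and 3.02 TPM (log2 fold change 0.89 ± 0.27, limma adjusted p = 0.0154). Rtp4, a chaperone of receptor transport, was at 1.61, 2.27, 3.68 and 2.08 TPM and 7.04, 3.31, 3.67 and 3.61 TPM (log2 fold change 0.84 ± 0.25, limma adjusted p = 0.0156), and the third WT muscle was above 3 of the 4 UBR4 mKO muscles. Parp14, an ADP-ribosyltransferase, was at 1.26, 1.56, 1.41 and 1.07 TPM and 3.88, 2.38, 2.29 and 1.74 TPM (log2 fold change 0.86 ± 0.29, limma adjusted p = 0.0247). Among these 4 genes the first UBR4 mKO muscle was the highest each time. The other type I targets called at this age were Ifih1, Ddx58, Xaf1, Bst2 and Ifi27, with log2 fold changes from 0.36 for Ifi27 to 0.70 for Ifih1. None of these 9 genes was called by limma without the first UBR4 mKO muscle.

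The type I targets that were not called were Ifit1, Ifit2, Ifit3 and Oasl2. Ifit1, whose product binds foreign RNA, was at 0.781, 1.24, 1.14 and 0.795 TPM in 6M WT and 3.57, 1.21, 1.08 and 1.2 TPM in 6M UBR4 mKO muscles (log2 fold change 0.62 ± 0.33, limma adjusted p = 0.127). Ifit2 ranged from 1 to 1.52 TPM in 6M WT and from 1.32 to 5.44 TPM in 6M UBR4 mKO, and Ifit3 from 2.95 to 3.87 and 3.99 to 13 TPM. In each of these 3 genes the highest value was that of the first UBR4 mKO muscle. Oasl2, an oligoadenylate synthetase-like gene, was at 0.524, 0.581, 0.757 and 0.524 TPM and 2.72, 0.863, 0.963 and 0.681 TPM (log2 fold change 0.83 ± 0.36, limma adjusted p = 0.0703). Of the untested genes, Oas1a was at 0.174 to 0.445 TPM in 6M WT and 0.389 to 2.7 TPM in 6M UBR4 mKO, Ifi44 at 0.196 to 0.268 and 0.295 to 1.11 TPM, and Usp18 at 0.555 to 0.714 and 0.596 to 1.24 TPM. Ifit3 and Oas1a are 97.8% and 97.6% identical to Ifit3b and Oas1g over the aligned length of their transcripts, and the handling of reads that match both copies is not given in the sources used here.

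Among the interferon gamma targets at 6 months, the immunity-related GTPases were called and the guanylate-binding proteins, with 1 exception, were not. Igtp was at 6.01, 6.94, 6.71 and 6.42 TPM in 6M WT and 13.8, 13.8, 10.1 and 7.62 TPM in 6M UBR4 mKO, without overlap, a log2 fold change of 0.75 ± 0.22 (limma adjusted p = 0.0149). Irgm1 was at 3.53, 4.19, 4.48 and 3.89 TPM and 6.61, 6.15, 5.82 and 6.15 TPM, a log2 fold change of 0.61 ± 0.13 (limma adjusted p = 0.00244). Irgm2 was at 4.14, 4.4, 6.13 and 4.8 TPM and 9.4, 10.2, 7.35 and 6.64 TPM, a log2 fold change of 0.77 ± 0.24 (limma adjusted p = 0.0171). All 3 were higher in every UBR4 mKO than in every WT muscle. Iigp1, a GTPase of the same family that was counted in neither class, was at 3.22, 4.03, 3.97 and 2.96 TPM and 10.2, 9.99, 8.99 and 4.77 TPM (log2 fold change 1.19 ± 0.44, limma adjusted p = 0.0371). With the median-ratio scaling none of these 4 GTPases was called, with log2 fold changes from 0.27 for Irgm1 (limma adjusted p = 0.132) to 0.84 for Iigp1 (limma adjusted p = 0.189).

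The 9 rows of guanylate-binding proteins had log2 fold changes from 0.53 for Gbp2 to 0.86 for Gbp9, with standard errors from 0.25 to 0.60, and 1 was called, Gbp6_1. It was at 1.61, 1.44, 0.96 and 1.08 TPM in 6M WT and 2.45, 2.47, 1.59 and 1.79 TPM in 6M UBR4 mKO (log2 fold change 0.66 ± 0.25, limma adjusted p = 0.0406), with 1 WT muscle above 1 UBR4 mKO muscle. Gbp9 ranged from 2.69 to 4.96 TPM in 6M WT and from 5.64 to 8.82 TPM in 6M UBR4 mKO (log2 fold change 0.86 ± 0.37, limma adjusted p = 0.0658), and Gbp7 from 1.77 to 2.17 and 2.46 to 4.5 TPM (log2 fold change 0.80 ± 0.37, limma adjusted p = 0.0804), both without overlap of the groups, as were Gbp4 and Gbp6_2. The other 6 rows had adjusted p-values from 0.168 for Gbp4 to 0.452 for Gbp2b in the same limma fit. The transcripts of Gbp4, Gbp6, Gbp9 and Gbp10 on chromosome 5 are 91.3 to 99.2% identical to one another over their aligned parts. The gene models of Gbp4 and Gbp9 overlap by 23773 bases and those of Igtp and Irgm2 by 7974 bases on the same strand (GENCODE vM21), so the split of reads within these pairs and groups is uncertain.

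The classes were also set side by side by their medians. The median log2 fold change at 6 months was 0.69 over the 12 rows of interferon gamma targets and 0.72 over the 18 tested rows of type I targets, a gap of -0.03, when the gap between the classes varied by 0.23 (SD) among the samples of a group. The share called was 4 of 12 (33.3%) and 14 of 18 (77.8%), against 43.7% of all genes. Without replicate 1 of 6M UBR4 mKO it was 3 of 12 and 3 of 18, against 36.6% of all genes, and with the median-ratio scaling 0 of 12 and 2 of 18, against 6.66%. No test between the classes was made, since their members were chosen by name with earlier results of these data known.

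Irf8 and Irf1, transcription factors of leukocyte development and of the early interferon gamma response, were also called. Irf8 was at 0.811, 0.845, 0.648 and 0.599 TPM in 6M WT and 1.72, 1.39, 1.19 and 0.985 TPM in 6M UBR4 mKO (log2 fold change 0.77 ± 0.19, limma adjusted p = 0.00561), without overlap, and Irf1 had a log2 fold change of 0.49 ± 0.19 (limma adjusted p = 0.0418). The gene model of Irf8 overlaps that of Gm20388 on the same strand.

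**Figure D2:**
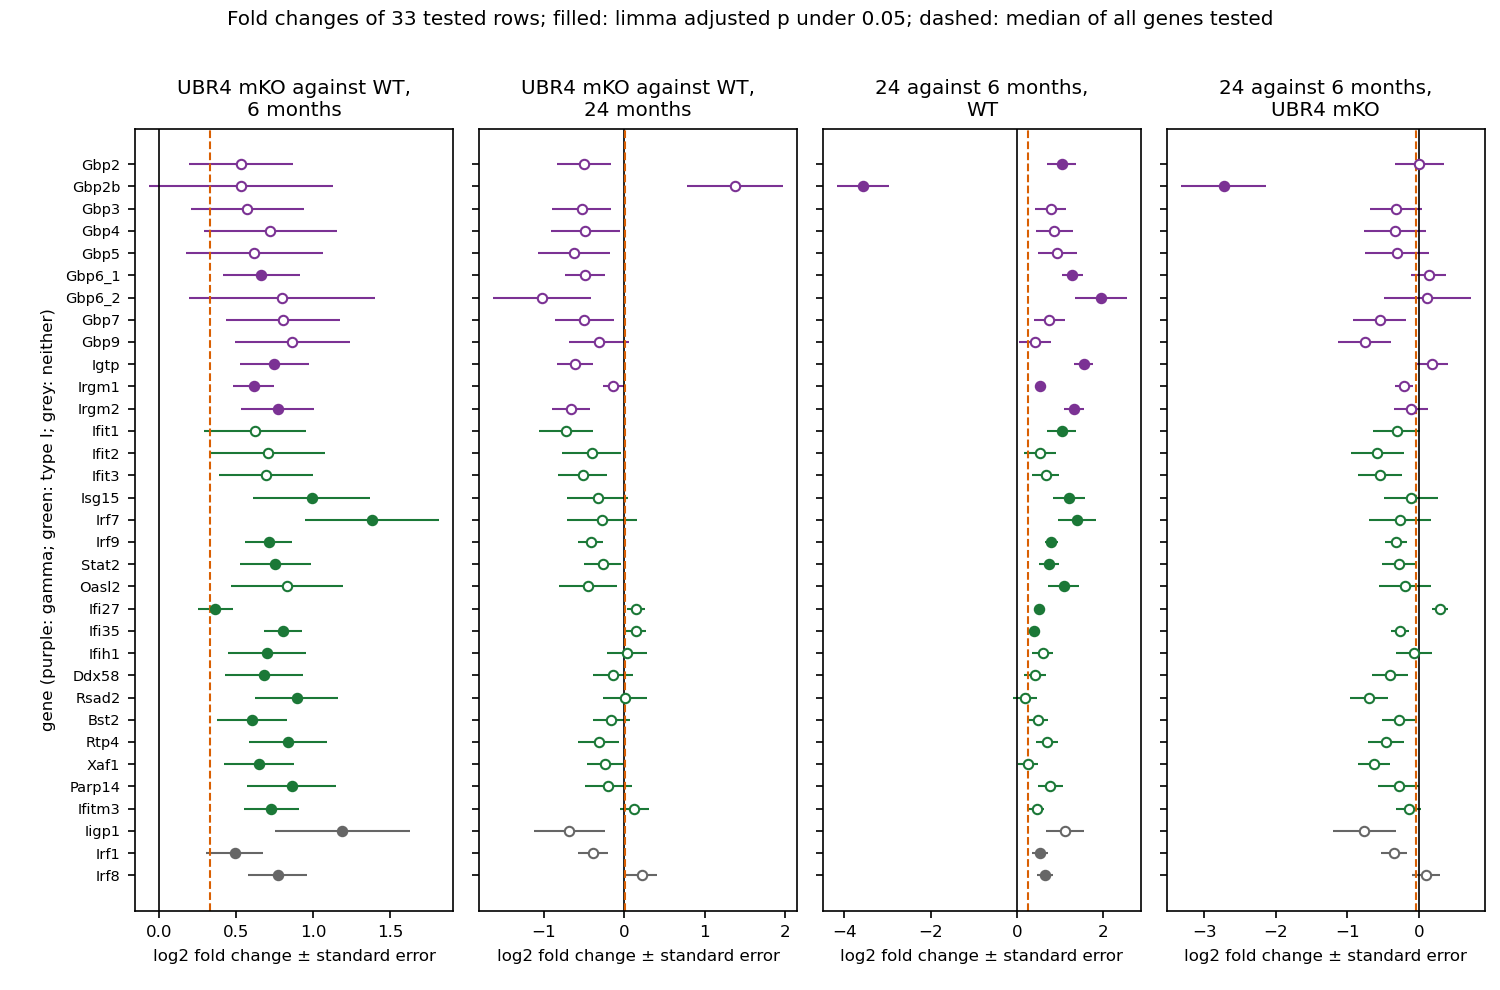
log2 fold change with its standard error (horizontal axes, with a different range in each panel) of the 33 tested rows (vertical axis) in 4 comparisons; filled circles had a limma adjusted p under 0.05 and the dashed line is the median of all 10628 genes. All rows are above 0 for UBR4 mKO against WT at 6 months, none is filled at 24 months, and Gbp2b alone is filled below 0 with age.

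Of the 9 macrophage markers, 8 were tested and all 8 were called higher in 6M UBR4 mKO, against 43.7% of all genes, and 7 of them also with the median-ratio scaling, against 6.66%. Their sum was 21 to 32.1 TPM in 6M WT and 67.4 to 239.2 TPM in 6M UBR4 mKO. Cd68, a lysosomal protein of macrophages, was at 0.66, 0.411, 0.594 and 0.602 TPM and 10.7, 3.66, 4 and 2.37 TPM (log2 fold change 2.77 ± 0.43, limma adjusted p = 0.000287), and Lyz2, lysozyme, at 12.2, 14.9, 18.4 and 14.1 TPM and 137.6, 47.3, 52.3 and 41.5 TPM (log2 fold change 2.05 ± 0.41, limma adjusted p = 0.00168), again highest in the first mouse. The 3 tested of 4 leukocyte markers were called higher as well, 2 of them with the median-ratio scaling. Their sum was 1.45 to 2.41 TPM in 6M WT and 4.33 to 15.0 TPM in 6M UBR4 mKO. The 10 markers of T and NK cells, the main sources of interferon gamma, were too low to be tested, but their sum was 0.0736, 0.279, 0.270 and 0.190 TPM in 6M WT and 1.57, 1.15, 0.708 and 0.431 TPM in 6M UBR4 mKO, without overlap. Cd3d and Cd3e, subunits of the T cell receptor complex, were listed at 0 in all 4 6M WT muscles. The sums of the B cell markers, none of them tested (0.338 to 0.548 and 0.578 to 0.826 TPM), and of the dendritic cell markers, 1 of them tested (0.729 to 1.51 and 1.70 to 2.47 TPM), did not overlap either. Those of plasmacytoid dendritic cells, none of them tested, overlapped (0.114 to 0.244 and 0.174 to 0.419 TPM). Of the other lists, 5 of 7 endothelial markers (0 with the median-ratio scaling), 2 of 5 fibroblast markers (1 with that scaling), a share near the 43.7% of all genes, and 0 of the tested dendritic cell, neutrophil and blood markers were called higher by limma at 6 months. The part of these cells in the result was not tested, and in such whole-muscle RNA more cells of a type and more RNA per cell cannot be told apart.

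With age in WT muscles, interferon targets of both classes were again called higher, with Igtp, Irgm2, Irf9 and Gbp6_1 among the smallest adjusted p-values. Of the 33 rows, 16 (48.5%) were called higher, against 24.0% of all genes, and 1 (3.03%), Gbp2b, was called lower, against 1.07%. The median was 0.74 against 0.26 for all genes. With the median-ratio scaling, 4 rows (12.1%), Igtp, Irgm2, Gbp6_1 and Irf9, were called higher against 4.44% of all genes. Gbp2b was still called lower, and the median was 0.48 against 0.00. The groups did not overlap, with 24M WT higher, for 19 of 33 rows, against 24.1% of all genes. This comparison shares its 6M WT samples with that of the genotypes at 6 months.

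Replicate 1 of 24M WT stood above the others here, with a sum of 116.9 TPM over the interferon gamma targets and 49.7 to 61.8 TPM in the other 3 mice. Without it, 6 rows (18.2%) were called higher, against 11.9% of all genes. The count of rows called in either direction, 17 in all, was 7 without this mouse, 11 without replicate 2 and 7 without replicate 4 of 24M WT, and 8, 11 and 7 without replicates 1, 3 and 4 of 6M WT. In these fits 9.16 to 19.1% of all genes were called in either direction. Gbp6_1, Igtp, Irgm1, Irgm2, Irf9 and Ifi27 kept the call of higher, and Gbp2b that of lower, in each of the fits that left out 1 sample.

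Igtp had the smallest adjusted p of the members with age. Its levels in 24M WT were 31.1, 14, 21 and 14.6 TPM, all above the 6.01 to 6.94 TPM of 6M WT, with a log2 fold change of 1.54 ± 0.22 (limma adjusted p = 0.000291), or 1.27 (limma adjusted p = 0.00359) with the median-ratio scaling. Irgm2 was at 16.1, 9.47, 13.8 and 10.2 TPM in 24M WT (log2 fold change 1.32 ± 0.24, limma adjusted p = 0.00163) and Irgm1 at 7.32, 5, 5.61 and 5.76 TPM (log2 fold change 0.54 ± 0.13, limma adjusted p = 0.0102), again without overlap with 6M WT. Iigp1 was at 15.8, 5.26, 7.72 and 5.43 TPM, all above 6M WT, and missed the threshold at 1.11 ± 0.44 (limma adjusted p = 0.0676).

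Of the guanylate-binding proteins, Gbp2, Gbp6_1 and Gbp6_2 were called higher with age in WT. Gbp6_1 was at 5.31, 2.09, 3.18 and 2.88 TPM in 24M WT against 0.96 to 1.61 TPM in 6M WT (log2 fold change 1.28 ± 0.25, limma adjusted p = 0.00275), and Gbp6_2 at 4.11, 1.97, 2.44 and 2.12 TPM against 0.479 to 0.681 TPM (log2 fold change 1.94 ± 0.60, limma adjusted p = 0.0298). Gbp2 was at 16.3, 5.04, 3.94 and 5.31 TPM in 24M WT against 2.49 to 3.82 TPM (log2 fold change 1.04 ± 0.34, limma adjusted p = 0.035). All 3 were without overlap, and replicate 1 was the highest in each. Gbp6_1 alone kept its call with the median-ratio scaling, with adjusted p-values of 0.149 for Gbp2 and 0.0852 for Gbp6_2 in the same limma model, and the log2 fold change of Gbp2 was 0.60, and not called, without replicate 1 of 24M WT. Gbp3, Gbp4, Gbp5, Gbp7 and Gbp9 were not called, with log2 fold changes from 0.42 to 0.94. In these 5, replicate 1 was between 3.40 and 10.1 TPM and the other 3 mice between 0.925 and 5.39 TPM.

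Gbp2b went the other way. It was at 1.19, 0.965, 2.15 and 1.31 TPM in 6M WT and 1.75, 2.26, 2.7 and 1.47 TPM in 6M UBR4 mKO muscles, but at 0.0651, 0, 0.0335 and 0 TPM in 24M WT and 0.0162, 0.0944, 0.121 and 1.88 TPM in 24M UBR4 mKO muscles. All 8 young mice expressed it, and of the 8 old mice only replicate 4 of 24M UBR4 mKO did so at a comparable level. The log2 fold change with age was -3.57 ± 0.60 (limma adjusted p = 0.000865) in WT and -2.73 ± 0.60 (limma adjusted p = 0.00998) in UBR4 mKO. Values listed at 0 make the size of this change depend on the pseudocount, and it was -1.21 in WT with 1 TPM added in place of 0.1. Its mean over the 16 samples, 1.00 TPM, was just at the filter. Gbp2b lies at chr3:142594847-142619179 (GRCm38, + strand) between Gbp3, at chr3:142560026-142573209, and Gbp2, at chr3:142620602-142638008, and neither neighbour was called lower with age in either genotype by limma.

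**Figure D3:**
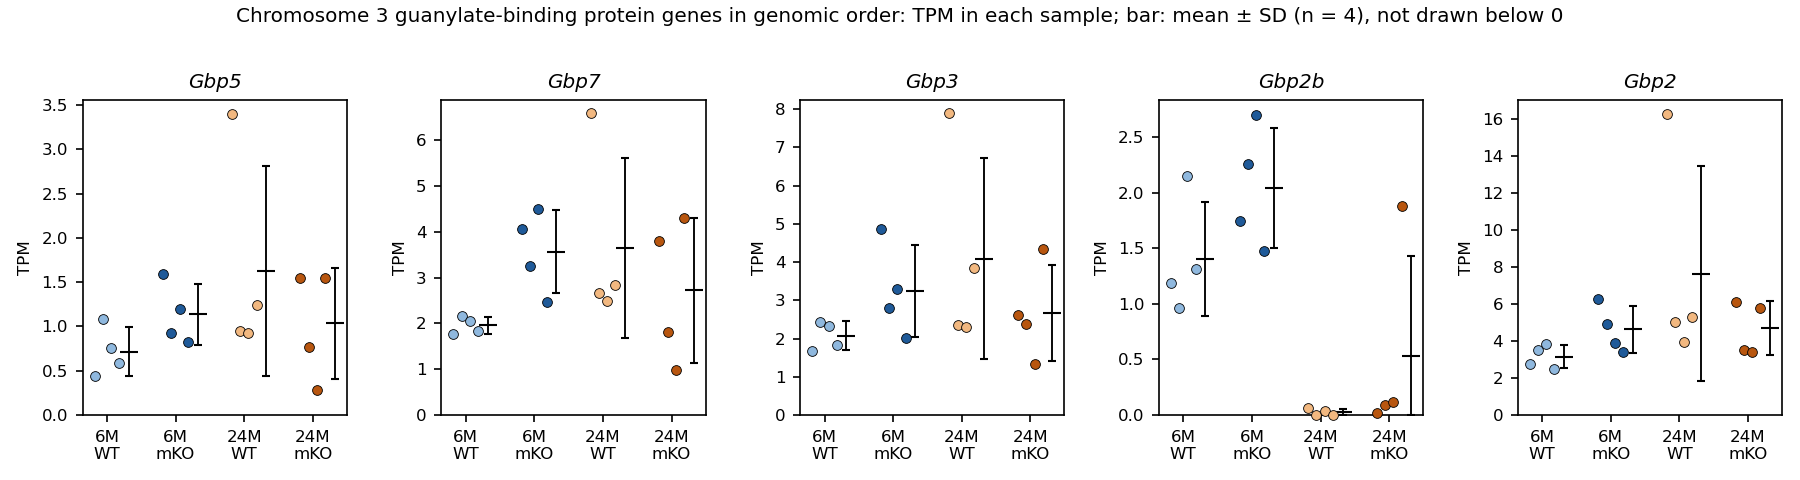
TPM (vertical axes) of the 5 guanylate-binding protein genes of chromosome 3, in genomic order, in each sample of the 4 groups (horizontal axes), with the mean and SD of 4 samples beside the points. Gbp2b is near 0 in 7 of the 8 old mice, and replicate 1 of 24M WT is the highest sample in the other 4 genes.

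The type I targets called with age in WT were Irf7, Isg15, Oasl2, Ifit1, Irf9, Stat2, Ifi27 and Ifi35. Irf7 was at 3.48, 2.98, 1.7 and 5.11 TPM in 24M WT (log2 fold change 1.39 ± 0.44, limma adjusted p = 0.0306) and Isg15 at 4.55, 5.27, 2.81 and 6.51 TPM (log2 fold change 1.21 ± 0.38, limma adjusted p = 0.03), each of the 4 above all 6M WT values. Irf9 was at 2.68, 2.66, 2.11 and 2.49 TPM (0.80 ± 0.15 (limma adjusted p = 0.00262), and 0.54 (limma adjusted p = 0.0133) with the median-ratio scaling). Oasl2 was at 1.76, 1.12, 1.05 and 1.65 TPM (1.08, limma adjusted p = 0.0398), Ifit1 at 2.35, 2.16, 1.46 and 2.54 TPM (1.03, limma adjusted p = 0.0342) and Stat2 at 4.17, 3.2, 2.42 and 2.94 TPM (0.74, limma adjusted p = 0.0291). Replicates 1 and 4 were the higher pair in Irf7, Oasl2 and Ifit1, and replicate 3 the lowest in Isg15, Irf7, Irf9 and Stat2. Of the 8 genes, Irf9 and Ifi27 were called in each fit that left out 1 sample. Rsad2, at 3.11, 1.79, 2.26 and 3.15 TPM, was above the 6M WT range in 2 of the 4 mice and had a log2 fold change of 0.18 ± 0.27 (limma adjusted p = 0.595). Rtp4, Parp14 and Ifitm3 had log2 fold changes of 0.69 (limma adjusted p = 0.0531), 0.77 (limma adjusted p = 0.0569) and 0.46 (limma adjusted p = 0.0632), and Irf8 and Irf1, which were called, 0.65 (limma adjusted p = 0.0236) and 0.53 (limma adjusted p = 0.0459).

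The median log2 fold change with age in WT was 0.90 over the interferon gamma targets and 0.63 over the type I targets. This was a gap of 0.27, when the gap between the classes varied by 0.36 (SD) among the single samples of a group. The gap of 0.27 was -0.12 without replicate 1 of 24M WT, the mouse in which the gap was 0.94 when it lay between -0.58 and 0.39 in the other 15. The share called higher was 6 of 12 and 8 of 18, against 24.0% of all genes, and 3 of 12 and 1 of 18 with the median-ratio scaling, against 4.44%. The macrophage markers summed to 36.4 to 82.6 TPM in 24M WT, and 3 of the 8 tested were called higher with age, 1 with the median-ratio scaling. In replicate 1 of 24M WT, the highest in the interferon gamma targets, this sum was 79.5 TPM, within the range of the other 3. There the sum of the T and NK cell markers was 1.19 TPM, against 0.572 to 0.734 TPM in the other 3 24M WT muscles and 0.0736 to 0.279 TPM in 6M WT. The highest such sum of all 16 samples was 1.84 TPM, in replicate 1 of 24M UBR4 mKO. The interferon gamma targets summed to 59.0 TPM in that mouse and to 116.9 TPM in replicate 1 of 24M WT. The 2 tested neutrophil markers (1 of them with the median-ratio scaling) and the 1 tested dendritic cell marker were called higher with age in WT, as were 2 of 3 leukocyte markers (0 with that scaling). Of the fibroblast markers 2 of 5 were called lower with both scalings, and of the endothelial markers 0 of 7, or 4 of 7 with the median-ratio scaling. Of all genes, 1.07% were called lower, or 5.33% with that scaling. The part of these cells in the result was not tested.

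At 24 months, 0 of 33 rows were called between UBR4 mKO and WT in either direction, against 0.433% of all genes called higher and 0.198% called lower by limma. At an unadjusted limma p under 0.05 there were 6 rows, against 1076 of all 10628 genes. The Dunn test after Kruskal-Wallis called 0 rows, but also 0 of all 10628 genes, so that this count cannot set the members apart. At an unadjusted p under 0.05 the Dunn test had 0 rows, against 427 of all genes. The log2 fold change was negative for 26 of 33 rows, with a median of -0.33 against 0.01 for all genes. Irgm2 came nearest, at 16.1, 9.47, 13.8 and 10.2 TPM in 24M WT and 10.3, 7.52, 4.38 and 9.88 TPM in 24M UBR4 mKO (log2 fold change -0.66 ± 0.24, limma adjusted p = 0.294), followed by Igtp at 13.7, 10.7, 10.9 and 15.3 TPM in 24M UBR4 mKO (log2 fold change -0.61 ± 0.22, limma adjusted p = 0.31) and Irf9 at 1.98, 1.8, 1.43 and 2.21 TPM (log2 fold change -0.41 ± 0.15, limma adjusted p = 0.314). The groups overlapped in all 36 rows, when 4.29% of all genes tested were higher and 1.51% lower in UBR4 mKO without overlap. The 24M UBR4 mKO mice were spread widely, as the interferon gamma targets summed to 59.0, 40.7, 31.4 and 67.6 TPM in replicates 1 to 4. In 24M UBR4 mKO, Gbp5 ranged from 0.277 to 1.55 TPM and Gbp9 from 1.49 to 7.93 TPM, and the lowest value of both was that of replicate 3. The median over the interferon gamma targets was -0.50 and over the type I targets -0.25, a gap of -0.25 with an SD of 0.46 among the samples of a group. This gap was -0.44 to -0.007 when 1 sample was left out.

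The macrophage markers at this age summed to 144.7, 374.4, 94.0 and 103.3 TPM in the 24M UBR4 mKO mice and 36.4 to 82.6 TPM in 24M WT, with 0 of 8 called by limma. Replicate 2, with the highest sum of all 16 samples, had 40.7 TPM of interferon gamma targets and 169.1 TPM of type I targets, a sum to which Ifitm3 contributed most.

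**Figure D4:**
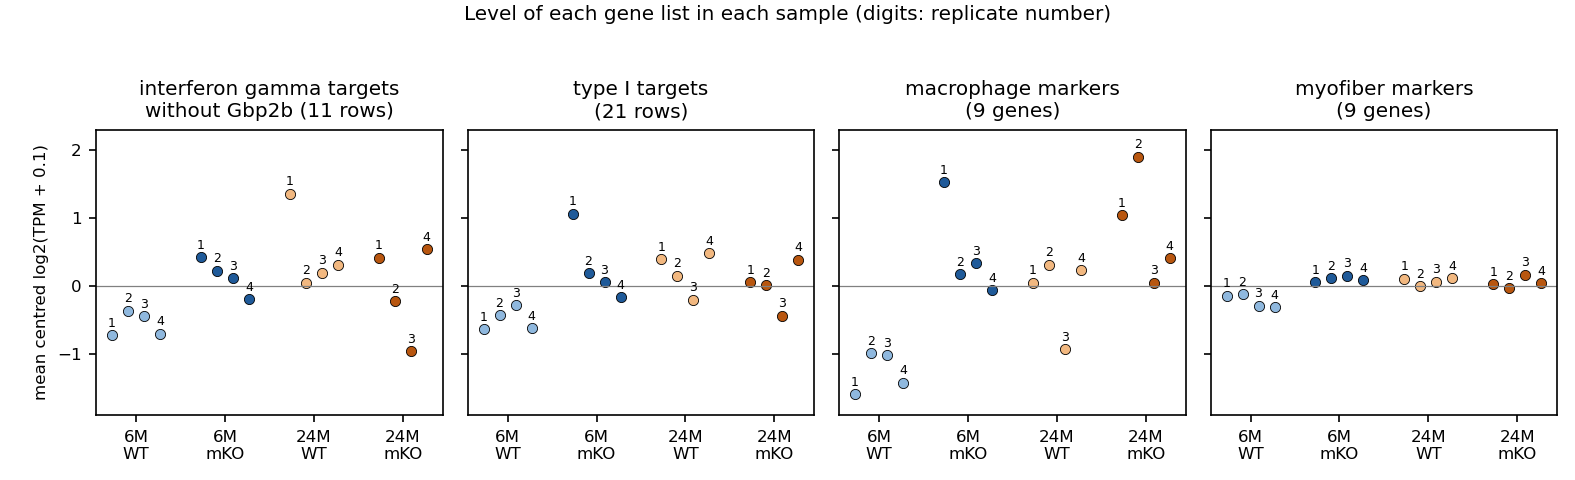
Mean over genes of the centred log2(TPM + 0.1) (vertical axis) for 2 classes of members and 2 lists of cell type markers in each sample (horizontal axis, by group; digits are replicate numbers). Replicate 1 of 6M UBR4 mKO is the highest sample in type I targets, replicate 1 of 24M WT in interferon gamma targets, and replicate 2 of 24M UBR4 mKO in macrophage markers.

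With age in UBR4 mKO muscles, Gbp2b was the 1 row called (3.03%), lower, against 3.85% of all genes called lower (2 rows without replicate 4 of 24M UBR4 mKO), and no row was called higher, against 2.45% of all genes. The median log2 fold change was -0.29 against -0.04 for all genes, and 27 of 33 rows were negative. The medians of the classes were -0.26 for interferon gamma targets and -0.28 for type I targets. Irf7, for example, was at 8.98, 2.91, 1.97 and 1.68 TPM in 6M UBR4 mKO and 1.68, 2.28, 2.01 and 5.35 TPM in 24M UBR4 mKO (log2 fold change -0.26 ± 0.44, limma adjusted p = 0.809), and Iigp1 at 10.2, 9.99, 8.99 and 4.77 and 7.6, 3.36, 1.81 and 10.8 TPM (log2 fold change -0.76 ± 0.44, limma adjusted p = 0.368).

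The difference between the genotype effects at the 2 ages was tested as an interaction. It was negative for 32 of 33 rows, that is, UBR4 mKO against WT was lower at 24 than at 6 months, with a median of -1.11 against -0.31 for all genes. Of the 33 rows, 5 (15.2%) were called, against 4.58% of all genes called lower and 0.122% called higher. They were Irf9 at -1.12 ± 0.22 (limma adjusted p = 0.00947), Irgm2 at -1.43 ± 0.34 (limma adjusted p = 0.0253), Igtp at -1.36 ± 0.32 (limma adjusted p = 0.025), Irgm1 at -0.75 ± 0.19 (limma adjusted p = 0.0323) and Ifi35 at -0.66 ± 0.18 (limma adjusted p = 0.0414). With the median-ratio scaling Irf9 alone was called (3.03%), at -0.81 (limma adjusted p = 0.0329), against 0.969% of all genes, and Irf9 was also the one called in each fit that left out 1 sample. The count of 5 was 1 without replicate 1 or 4 of 6M WT or replicate 1 or 2 of 6M UBR4 mKO, 2 or 3 without replicate 3 of 6M UBR4 mKO, replicate 1 or 4 of 24M WT or replicate 2 of 24M UBR4 mKO, when 1.68 to 2.31% of all genes were called lower. It was 11 without replicate 2 of 6M WT, against 23.1% of all genes, and 8 without replicate 4 of 24M UBR4 mKO, against 6.18%. The 4 groups of Irf9 were at 1.23, 1.6, 1.49 and 1.24 TPM in 6M WT, 2.76, 2.51, 2 and 2.11 TPM in 6M UBR4 mKO, 2.68, 2.66, 2.11 and 2.49 TPM in 24M WT and 1.98, 1.8, 1.43 and 2.21 TPM in 24M UBR4 mKO muscles, so that 6M WT was the lowest group and 24M WT the highest. Irgm2 and Igtp also had their highest group mean in 24M WT, 12.4 and 20.2 TPM, whereas the group means of 6M and 24M UBR4 mKO were 8.40 and 8.02 TPM for Irgm2 and 11.3 and 12.7 TPM for Igtp. The medians were -1.19 over the interferon gamma targets and -1.04 over the type I targets.

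**Figure D5:**
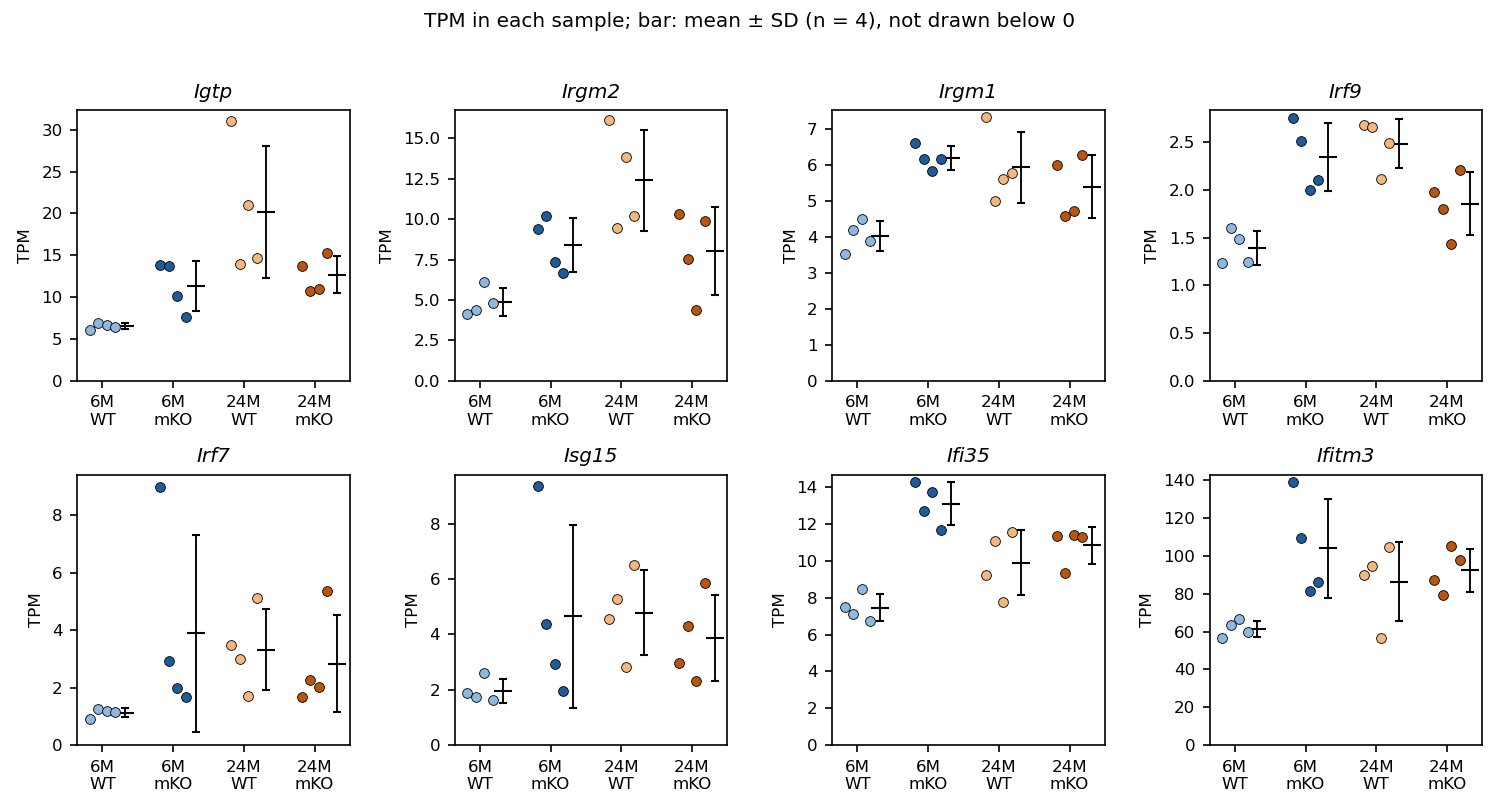
TPM (vertical axes) of 8 members in each sample of the 4 groups (horizontal axes), with the mean and SD of 4 samples beside the points. The 6M WT samples are the lowest group in each panel, and the spread in 6M UBR4 mKO comes from 1 high mouse for Irf7 and Isg15.

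The rest of the pathway was read from gene lists. Of the 11 interferon ligand genes, 7 were listed at 0 in every sample, and the highest value of any was 0.0761 TPM, for Ifng in replicate 1 of 24M WT. Ifng was also at 0.0379 TPM in replicate 1 of 24M UBR4 mKO and listed at 0 in the other 14 samples. Ifnb1 reached 0.0633 TPM in replicate 4 of 24M UBR4 mKO and was listed at 0 elsewhere. No ligand reached the level needed for a test. The receptors were expressed. At 6 months 4 of 5 tested receptor genes were called higher in UBR4 mKO, against 43.7% of all genes, with Il10rb, a subunit shared by the receptors of interleukin 10 and type III interferon, at 0.70 (limma adjusted p = 0.00626) and Ifnar2, a subunit of the type I receptor, at 0.63 (limma adjusted p = 0.00888). Of these 5 genes, 0 were called higher and 1, Ifngr2, was called lower with the median-ratio scaling, against 6.66% and 10.2% of all genes. With age in WT 0 of 5 were called by limma.

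Of the 8 tested signal transducers and brakes, 5 were called higher in 6M UBR4 mKO, against 43.7% of all genes, and 5 with age in WT, against 24.0%. Socs3, an inhibitor of cytokine receptors, changed most, with log2 fold changes of 1.42 ± 0.43 (limma adjusted p = 0.0161) at 6 months and 1.64 ± 0.43 (limma adjusted p = 0.0147) with age, and Tyk2, a kinase of the type I receptor, rose by 0.74 (limma adjusted p = 0.00192) and 0.66 (limma adjusted p = 0.00752). Among nucleic acid sensing genes 7 of 8 were called higher in 6M UBR4 mKO, with Tmem173, which encodes STING, at 0.85 (limma adjusted p = 0.00593) and the kinase Tbk1 at 0.74 (limma adjusted p = 0.00191). With age in WT 2 of 8 were called higher, a share near the 24.0% of all genes. In the interaction, 3 signal transducers and brakes and 2 sensing genes were called lower, against 4.58% of all genes, among them Socs3 at -2.18 (limma adjusted p = 0.0498) and Tbk1 at -0.85 (limma adjusted p = 0.0355). With the median-ratio scaling 2 of 8 signal transducers and brakes were called higher at 6 months, against 6.66% of all genes, and 1, Irf2, lower, with 1, Tyk2, called higher with age in WT, against 4.44%, and 0 in the interaction, so that Socs3 was called in none of these. With that scaling Tbk1 was the 1 sensing gene called higher at 6 months and with age and the 1 called lower in the interaction. Mavs, the adaptor of the RNA sensors, was called lower with age in WT with that scaling.

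Other interferon-stimulated genes, 26 of them tested, had a median of 0.68 at 6 months and 0.41 with age in WT, with 17 and 6 called higher, against 43.7% and 24.0% of all genes. The median-ratio scaling left 5 and 3 called higher, against 6.66% and 4.44%, and 1, Ifit3b, a near-identical copy of the member Ifit3, was called lower with it at 6 months. The share of 6 of 26 with age was near the background. Ifi204, a gene of the AIM2-like DNA sensors, was at 0.501, 0.488, 0.511 and 0.481 TPM in 6M WT and 4.2, 1.29, 1.31 and 1.22 TPM in 6M UBR4 mKO (log2 fold change 1.62 ± 0.34, limma adjusted p = 0.00215), and Ifi27l2a had the largest change with age in WT (log2 fold change 2.13 ± 0.45, limma adjusted p = 0.0046). Of 5 tested further interferon-inducible GTPases, 0 were called at 6 months by limma, and 2 with age in WT, Gbp10 at 1.13 (limma adjusted p = 0.0349) and Ifi47 at 1.10 (limma adjusted p = 0.0488), of which neither was called with the median-ratio scaling.

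Antigen processing genes, MHC genes and CXCR3 ligands held the largest change of the pathway lists. Cxcl10, a chemokine that attracts T cells and is induced by both kinds of interferon, was at 0.232, 0.175, 0.261 and 0.322 TPM in 6M WT, 4.14, 1.97, 0.746 and 1.8 TPM in 6M UBR4 mKO, 4.05, 4.19, 4.91 and 10.2 TPM in 24M WT and 0.655, 1.27, 3.03 and 2.69 TPM in 24M UBR4 mKO muscles. It rose by 2.49 ± 0.46 (limma adjusted p = 0.000954) in 6M UBR4 mKO and by 4.00 ± 0.46 (limma adjusted p = 3.4e-05) with age in WT, both without overlap of the groups. The interaction was -4.16 ± 0.65 (limma adjusted p = 0.00234). Of the 20 tested genes of this list, 16 were called higher at 6 months, against 43.7% of all genes, or 5 with the median-ratio scaling, against 6.66%, among them the MHC class II gene H2-Eb1 at 1.86 (limma adjusted p = 0.000308). With age in WT 9 were called higher, against 24.0%, or 2 with that scaling, against 4.44%, among them the MHC class I gene H2-Q7 at 1.5 (limma adjusted p = 0.00142). MHC class II genes are also markers of antigen-presenting leukocytes, and the part of such cells was not tested.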

How the data were processed

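RNA from the tibialis anterior of 16 mice (4 in each of 4 groups, each sample a separate mouse) was sequenced as paired-end reads. The authors trimmed and filtered the reads, aligned them to the GRCm38 (mm10) genome and computed TPM with CLC Genomics Workbench, and deposited 1 table of TPM values. Read numbers are unknown from TPM. The annotation release, the use of strand and the treatment of reads with several matches are not given in the sources used here, and the study's methods and the sample labels name different library kits.

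Groups were taken from the sample labels. The 10628 of 47643 genes whose TPM averaged 1 or more were fitted on log2(TPM + 0.1) with limma 3.58.1 in R 4.3.3, with 1 coefficient per group, all 16 samples, a trended prior and Benjamini-Hochberg adjustment over all genes tested, at a threshold of 0.05. The study's methods name Kruskal-Wallis with the Dunn test, which was run as an alternative, because limma also gives an effect size with its error and the interaction. The members, their classes and the gene lists were chosen with earlier results of these data known. Values in every sample are given for up to 20 members called in at least 1 comparison, those with the largest changes first. Of each pathway list at most 2 called genes per comparison and direction are named. Cd68, Lyz2, Cd3d and Cd3e and Gm5900 were singled out after their values were seen. The per-sample class gap is the median centred level of the interferon gamma targets minus that of the type I targets. Gene positions are those of GENCODE vM21, promoters those of RefSeq (GRCm38.p6), and near-identical transcripts were searched for with blastn 2.17.0. Alternatives were a pseudocount of 1, no filter, scaling each sample by the median of its ratios to the geometric mean over samples, only the groups compared, the replicate number as a block, the Dunn test, each sample left out in turn, and, for the class gap, Iigp1, Irf1 and Irf8 counted with the interferon gamma targets. No pair of samples held identical values.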

Additional observations from a re-analysis of the deposited data

Results flagged for a closer look

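Single samples stood far from the other 3 of their group, by Dixon's criterion for 4 values, in 9 of the 156 groups of values examined, when about 7.8, or 1 in 20, would be by chance. Replicate 1 of 24M WT was high in Gbp4, at 10.1 TPM against 2.28 to 2.88 TPM in the other 3 muscles, and in Gbp7, at 6.59 TPM against 2.49 to 2.85 TPM. Replicate 1 of 6M UBR4 mKO was high in Ifit1, at 3.57 TPM against 1.08 to 1.21 TPM, in Ifit2, at 5.44 TPM against 1.32 to 1.64 TPM, and in Rtp4, at 7.04 TPM against 3.31 to 3.67 TPM. The 5 high values thus came from these 2 mice, the first in guanylate-binding proteins and the second in type I targets. Low values were those of Stat2, at 1.62 TPM against 2.87 to 3.08 TPM, and Rtp4, at 2.36 TPM against 3.16 to 3.35 TPM, in replicate 3 of 24M UBR4 mKO, of Ifi35, at 9.36 TPM against 11.3 to 11.4 TPM, in replicate 2 of 24M UBR4 mKO, and of Iigp1, at 4.77 TPM against 8.99 to 10.2 TPM, in replicate 4 of 6M UBR4 mKO.

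The effect of UBR4 mKO differed between 6 and 24 months for 5 members by limma's interaction term: Irf9 (log2 difference -1.12, adjusted p = 0.00947), Igtp (-1.36, adjusted p = 0.025), Irgm2 (-1.43, adjusted p = 0.0253), Irgm1 (-0.75, adjusted p = 0.0323) and Ifi35 (-0.66, adjusted p = 0.0414). Of all genes, 4.58% were called lower by this term. Irf9 alone was also called with the median-ratio scaling, and it alone kept its call in each fit that left out 1 sample. Each of the 5 was called higher in UBR4 mKO at 6 months. At 24 months none was called by limma, and the log2 fold change was -0.66 for Irgm2, -0.61 for Igtp, -0.41 for Irf9, -0.14 for Irgm1 and 0.14 for Ifi35.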

How the results depend on the processing

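The scaling, the test, the filter and single samples each moved counts. For UBR4 mKO against WT at 6 months 21 rows were called, and 13 without a filter (22.9% of all genes called higher), 2 with the median-ratio scaling (6.66%), 4 with the Dunn test (23.1%), and 7 to 25 when 1 sample was left out (12 and 9 without replicates 1 and 4 of 6M WT, 7 without replicate 1 of 6M UBR4 mKO). For age in WT 17 rows were called, and 9 without a filter (10.8% of all genes in either direction), 5 with the median-ratio scaling (9.77%), 0 with the Dunn test (18 at an unadjusted p under 0.05), which called 0 of all 10628 genes for either age comparison, and 7 to 24 when 1 sample was left out. For age in UBR4 mKO 1 row was called, and 0 in a fit of only the groups compared (4.13% of all genes), 0 with the Dunn test (1 at an unadjusted p under 0.05), and 1 to 2 when 1 sample was left out (2 without replicate 4 of 24M UBR4 mKO). For the interaction 5 rows were called, 1 without a filter (1.36% of all genes called lower), 1 with the median-ratio scaling (0.969%), and 1 to 11 when 1 sample was left out. At 24 months the count was 0 under each alternative run, and the Dunn test called 0 of all genes in that comparison too. Without a filter more genes were tested, and the cause of the other moves was not tested. A pseudocount of 1 left each count within 1.5 times, and no called row changed direction under any alternative. The gap between the class medians with age in WT was 0.27, and -0.12 to 0.46 when 1 sample was left out, the lowest without replicate 1 of 24M WT. With Iigp1, Irf1 and Irf8 counted as interferon gamma targets it was 0.24.

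Samples with the same replicate number did not all deviate together (correlations of -0.155 to 0.181 over genes), and the main fit treated the mice as unpaired. Such correlations cannot show that the mice were unpaired. With the replicate number as a block, 21 rows were called at 6 months (39.9% of all genes in either direction), 16 for age in WT (19.0%), 1 for age in UBR4 mKO (5.01%), 4 for the interaction (2.67%) and 0 at 24 months (0.358%). Of the rows called in the main fit, 15 of 17 for age in WT and 3 of 5 for the interaction kept their call with the block. Since the table keeps no read numbers, the counting error of genes at 1 to 3 TPM is unknown.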

Other observations

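Gbp2b was the 1 member called lower with age. Across the 16 samples its log2 levels correlated with those of the other 8 rows of guanylate-binding proteins at r from -0.64 (Gbp6_1) to 0.27 (Gbp9), as a description without a test. Of all genes tested, Gm5900, a processed pseudogene at chr7:104949915-104950289 (GRCm38), was most like it over the 16 samples (r = 0.98, chosen after its values were seen). Gm5900 was at 5.70, 6.82, 9.35 and 5.63 TPM in 6M WT, 6.84, 9.62, 14.5 and 10.7 TPM in 6M UBR4 mKO, 0.0725, 0.0357, 0.0373 and 0 TPM in 24M WT, and 0.108, 0.596, 0.675 and 6.45 TPM in 24M UBR4 mKO. Replicate 4 of the last group was thus within the range of the 8 young muscles for both genes. In the genes next in likeness, Hist1h2al (r = 0.91) and Gm3608 (r = 0.88), that sample was at 1.51 and 0.914 TPM, when the 8 young muscles ranged from 8.96 to 17.1 and from 2.66 to 5.03 TPM.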
